A study of Homo sapiens with 47 samples.

Results

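The regions described here are stretches of the genome where H3K9me3, trimethylation of lysine 9 on histone H3, was called in every one of 8 ChIP-seq libraries of the melanoma cell line 451Lu. The islands of all 8 libraries on chromosomes 1 to 22 were merged wherever they overlapped. A merged region was kept when it was 10 kb or longer and held an island of each library. This rule gave 9911 large constant regions of 83727 merged regions (11.8%), covering 281 Mb of 663 Mb (42.5%). The regions were chosen by the authors' island calls and by length, so their number, size and presence in every library are descriptions and were not tested. The 4 groups had 2 libraries each. They were 451Lu cells resistant to the BRAF inhibitor vemurafenib (resistant), the parental 451Lu cells (parental), 451Lu cells made to over-express c-JUN and c-FOS, subunits of the transcription factor AP-1, and carrying an shRNA against p150 (shp150_AP1), and their control with vector and NT (vector_NT). ATAC-seq, which marks open chromatin, was listed for the same groups, for the single changes AP1 and shp150 with their controls vector and NT, and for resistant and parental cells of a second melanoma line, WM983B. Whether the 2 replicates of a group were separate cultures is not stated in the labels, and the p-values measure only the spread between these libraries, which may be technical.

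H3K9me3 is laid down by SETDB1 and the SUV39H enzymes and is bound by HP1 proteins, which keep chromatin compact. It is known to cover clusters of KRAB zinc finger genes, whose own products recruit SETDB1 through TRIM28, and it is also found over repeats and over the clustered protocadherin genes. Broad islands of a mark are called where ChIP reads exceed what an input library, sequenced without antibody, gives at the same place. A stretch that is present in more copies or is sequenced more readily gives more reads in both libraries.

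The 8 libraries held 39905 to 76134 islands on these chromosomes, with 11.5 to 30.9 M ChIP reads and 11.04 to 13.09 M input reads inside islands. Large constant regions took 72.4% and 71.0% of the island ChIP reads in resistant cells, 62.5% and 61.0% in parental cells, 67.6% and 68.3% in shp150_AP1 cells, and 59.2% and 60.2% in vector_NT cells. Their share of the island length was close to this and had the same order of groups. It was 67.5% and 66.2% in resistant and 57.3% and 55.5% in parental libraries. In shp150_AP1 libraries it was 62.6% and 63.1%, and in vector_NT libraries 53.0% and 54.1%. Region by region, the fold of ChIP over input was taken from the summed counts of the islands inside it, times the depth factor per library that the authors used. Among the constant regions, replicates of 1 group gave correlated folds, with Pearson's r across 9911 regions of 0.802 in resistant, 0.850 in parental, 0.807 in shp150_AP1 and 0.872 in vector_NT cells. These points share their libraries and are not replicates of a condition.

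The large constant regions were mostly of modest size. Their median length was 17.6 kb, with quartiles of 13 and 27 kb. 292 of them reached 100 kb and 6 reached 1 Mb. A further 7032 regions were called in all 8 libraries but were shorter. At the length limit, 215 members had the smallest length of 10.2 kb and 199 constant regions lay just outside it at 9.999 kb. For example, the member at chromosome 1, 20358201 to 20368399, had a mean fold of 2.28, and the region just too short at chromosome 1, 30033001 to 30042999, had 2.73.

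Constant in calls did not mean filled in every library. Islands covered 69.0% and 62.8% of the summed length in resistant, 66.2% and 66.0% in parental, 59.5% and 71.0% in shp150_AP1, and 74.0% and 72.3% in vector_NT libraries. In only 2087 regions did islands cover 50% or more of the length in each library. Nor was the enrichment always high. The mean fold over the 8 libraries (geometric mean) had a median of 2.0 with quartiles of 1.63 and 2.45, below the median of 2.46 in the shorter constant regions. A fold of 2 or more in all 8 libraries was found in 2045 regions (20.6%), and of 1.5 or more in 5772 (58.2%). In 401 regions at least 1 library had a fold below 1, and in 25 regions, 9.91 Mb in all, every library did. No cut-off on significance applied to the deposited islands, and all of them were used. The term domain therefore holds for part of the set, and the regions are called large constant regions below.

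Their distribution over chromosomes was uneven. Chromosome 8 held 1438 of them, chromosome 2 held 1426, chromosome 5 held 929, chromosome 7 held 790 and chromosome 20 held 767. Chromosome 18 held 35, the fewest, followed by chromosome 9 with 72, chromosome 10 with 99 and chromosome 14 with 100. As a share of the length of all merged regions on a chromosome, they took 79.2% on chromosome 20, 75.7% on chromosome 19, 65.5% on chromosome 22, 65% on chromosome 21 and 61.9% on chromosome 17. On chromosome 18 this share was 11.4%. Chromosomes rich in large constant regions were of 2 kinds when the fold was read beside the input. On chromosome 19 the 245 regions had a median fold of 3.12, and 78.0% of them had a fold of 2 or more in all 8 libraries. On chromosome 20 the median fold was 1.42 and this share was 1.04%.

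**Figure D1:**
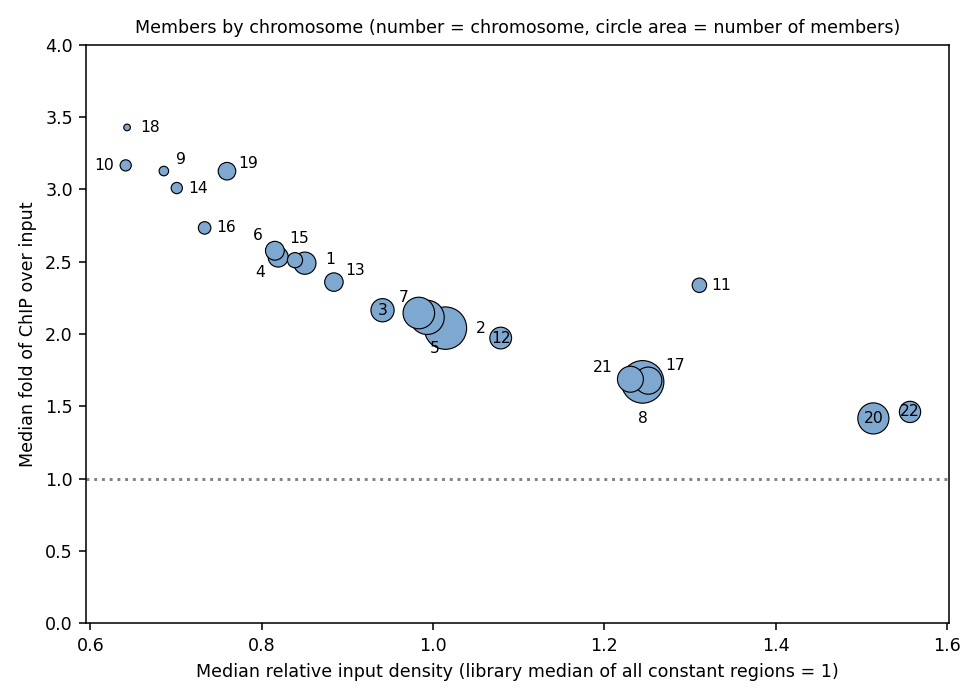
Median fold of H3K9me3 ChIP over input (vertical axis) against median relative input density (horizontal axis) of the large constant regions of each chromosome, as means of 8 libraries. The number is the chromosome and the circle area follows the number of regions. Chromosomes 20 and 22 lie at the lower right with folds of 1.42 and 1.46, and chromosome 19 at the upper left with 3.12.

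Input reads moved with this split. Input density is given here as input reads per kb of island, relative to the median of all constant regions in the same library, so that 1 is the typical constant region. Its median was 1.51 on chromosome 20, 1.56 on chromosome 22, 1.25 on chromosome 17 and 1.23 on chromosome 21, against 0.760 on chromosome 19, 0.643 on chromosome 18 and 0.641 on chromosome 10. Over all regions, those with a mean fold under 1.2 (339 regions, 29.6 Mb) had a median relative input density of 1.73. It was 1.40 in the 1287 regions with a fold of 1.2 to 1.5, 1.17 in the 3336 from 1.5 to 2, 0.912 in the 4004 from 2 to 3, and 0.669 in the 945 of 3 or more. Since fold has input as its denominator, the relation was also taken between libraries. The log2 input density of parental replicate 1 and the log2 fold of parental replicate 2 had a Pearson's r of -0.72 across 9911 regions, and resistant replicate 1 against 2 gave -0.76. The inputs of different libraries were different data: at islands with the same coordinates in 2 libraries, at most 3.41% had equal input counts. The labels used here list an input sample for each library other than shp150_AP1 replicate 1, and the source of the input reads in its island file is not stated. The relative input density of a region was itself alike between replicates, with r of 0.893 to 0.913. Copy number was not measured, and its part in the calls was not tested.

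**Figure D2:**
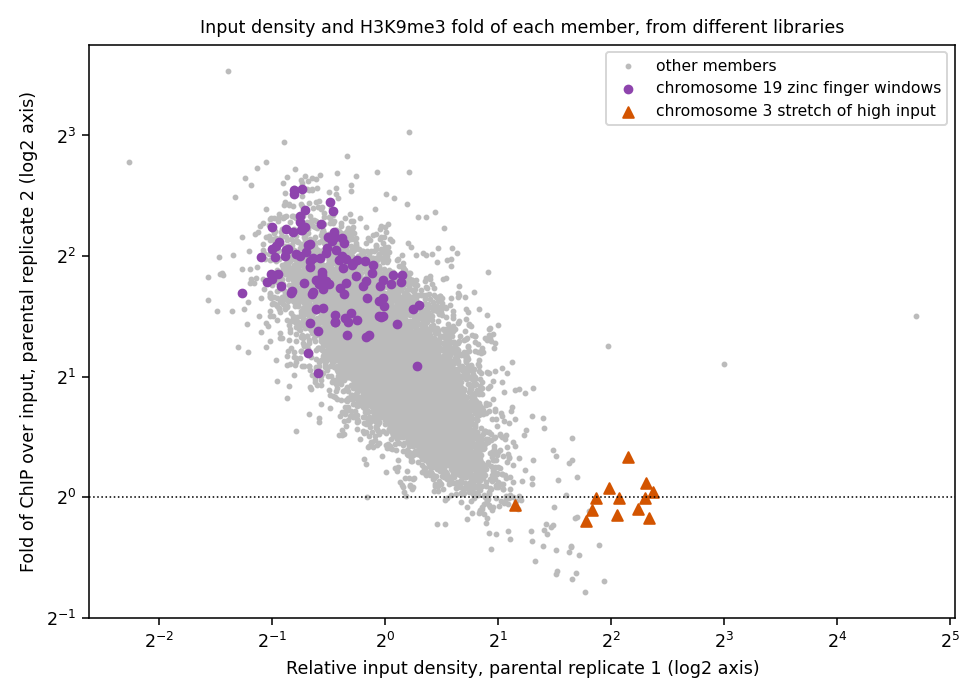
Each large constant region by its relative input density in parental replicate 1 (horizontal log2 axis) and its fold of H3K9me3 ChIP over input in parental replicate 2 (vertical log2 axis). Regions in chromosome 19 zinc finger windows (purple) lie at high fold, and those of a chromosome 3 stretch between 60 and 75 Mb (orange triangles) lie at high input and a fold near 1.

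The longest regions had little or no enrichment. All 10 of the longest lay on chromosome 3, between 60 and 86 Mb. The longest of all, at chromosome 3, 68747801 to 72094199, spans 3346 kb. Its fold was 0.957 and 0.953 in resistant, 1.03 and 1.03 in parental, 0.969 and 0.961 in shp150_AP1, and 1.02 and 1.03 in vector_NT cells. Its input density was 4.5 and 4.5 times the typical constant region in resistant, 5.16 and 5.16 times in parental, 4.69 and 4.67 times in shp150_AP1, and 4.99 and 5.01 times in vector_NT cells. The next, at chromosome 3, 72095001 to 74501399, had folds of 0.962 to 0.998 over all 8 libraries and a mean relative input density of 4.05. Between 60 and 75 Mb there were 13 regions covering 14.5 Mb. Their pooled fold, from summed reads, was 0.971 and 0.966 in resistant, 0.986 and 0.988 in parental, 0.973 and 0.967 in shp150_AP1, and 0.979 and 0.981 in vector_NT cells. Summed over this stretch, ChIP was thus below the input level in each library, although islands covered 97.99% or more of its length. Single regions there could lie above it, such as the one at chromosome 3, 60507401, with folds of 1.14 to 1.30 over the 8 libraries. With islands at the authors' false discovery rate of 0.01 or less, this stretch held 4 such regions and the longest region measured 877 kb.

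High folds were found in some gene clusters, but not only there. Of the large constant regions, 945 had a mean fold of 3 or more. The median fold was 3.43 on chromosome 18, 3.16 on chromosome 10 and 3.13 on chromosome 9. No annotation of the build hg19 was used, so windows of whole Mb were set from general knowledge of where gene families lie, and no region was assigned to a single gene. In 5 chromosome 19 windows rich in zinc finger genes there were 110 large constant regions covering 9.97 Mb. They filled 93.1% of the 19p12 window (20 to 24 Mb) and 95.5% of the 19q13.12 window (37 to 38 Mb), with median folds of 3.09 and 3.81. The 19p13.2 window (11 to 13 Mb) was filled to 49.4%, with a median fold of 3.68, and the 19q13.31 window (44 to 45 Mb) to 66.0%, with 2.95. The 19q13.4 window (52 to 58 Mb) was filled to 53.8%, with a median fold of 3.31. The longest of these regions, at chromosome 19, 22049601 to 22580399, spans 531 kb. Its fold was 2.75 and 2.88 in resistant, 3.19 and 3.14 in parental, 3.01 and 3.02 in shp150_AP1, and 3.38 and 3.45 in vector_NT cells, and it held no ATAC-seq region of 451Lu.

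Other clusters differed in the same readout. The 7q11.21 zinc finger window (63 to 65 Mb) held 14 regions with a median fold of 3.06. The protocadherin window on 5q31, home of cell adhesion genes expressed in combinations by neurons, held 7 regions, the longest of 422 kb. Their median fold was 2.17, near the 2.0 of all large constant regions. This median counts each region alike, while the longest made up 422 kb of 0.668 Mb. From summed reads, the fold of the window was 2.21 to 3.41 over the 8 libraries. Over all large constant regions it was 1.45 to 1.84. The HOXA and HOXD windows, which hold body-plan transcription factors, had 6 and 7 regions that filled 10.6% and 5.41% of them. The median folds there were 2.21 and 2.57. The interferon window on 9p21 had 2, the histone window on 6p22 had 3, the defensin window on 8p23 had 4 and the keratin window on 17q21 had 4. In this order their median folds were 2.90, 2.98, 1.65 and 2.93. No large constant region lay in the olfactory receptor windows of 11p15, 11q11 and 14q11, in the HOXB and HOXC windows or in the keratin window on 12q13. The olfactory receptor window on 6p22 held 2.

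The first comparison asked how H3K9me3 in these regions differed in cells that had become resistant to vemurafenib. Summed over all large constant regions, the fold was 1.45 and 1.51 in resistant cells, against 1.75 and 1.78 in parental cells. The means were 1.48 ± 0.044 and 1.76 ± 0.020 (SD, n = 2 each), a log2 difference of -0.25, and the groups did not overlap. The exact two-sided permutation p was 0.33, the smallest that 2 against 2 libraries allow. In bulk libraries, fewer cells carrying the mark and less of the mark per cell cannot be told apart. Nor can either be told apart from a lower ChIP enrichment of the resistant libraries as a whole. The same difference was -0.40 in the shorter constant regions and -0.46 in the merged regions not called in all 8 libraries. Each of these folds is taken over the library's own islands, which covered the shares of length given above, so the places summed were not the same in every library.

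The gap differed between groups of regions. In the chromosome 19 zinc finger windows the pooled fold was 2.74 and 2.89 in resistant cells, against 3.61 and 3.68 in parental cells, a log2 difference of -0.37. In the 7q11.21 window it was 2.64 and 2.81 in resistant, against 3.55 and 3.48 in parental cells (-0.37), and in the protocadherin window 2.21 and 2.37 in resistant against 3.07 and 3.13 in parental cells (-0.44). On chromosome 14 it was 2.06 and 2.23 in resistant, against 2.96 and 3.04 in parental cells (-0.49). On chromosome 20 the log2 difference was -0.24 and in the chromosome 3 stretch -0.028. The relative input density also differed without overlap. It was 0.907 and 0.911 in resistant, against 0.780 and 0.762 in parental cells, on chromosome 14. In the 7q11.21 window it was 0.731 and 0.731 in resistant, against 0.616 and 0.639 in parental cells, and in the protocadherin window 1.07 and 1.06 in resistant, against 0.972 and 0.986 in parental cells. Resistant cells also had the higher values on chromosome 20, and the lower ones in the chromosome 3 stretch and, by little, in the chromosome 19 windows (0.774 and 0.779 in resistant, against 0.787 and 0.791 in parental cells). The part of input in these folds was not tested. In each of these sets the resistant and parental libraries did not overlap, with an exact permutation p of 0.33, the smallest possible. Differences between sets were not tested.

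**Figure D3:**
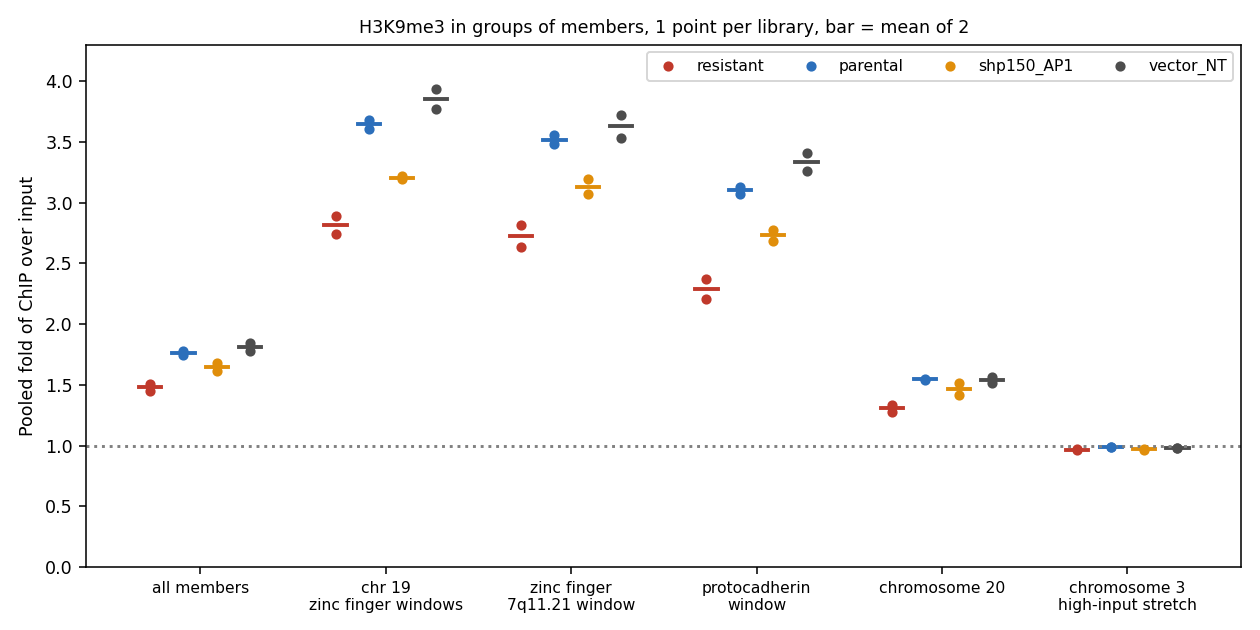
Pooled fold of H3K9me3 ChIP over input (vertical axis) in 6 sets of large constant regions, 1 point per library, with a bar at the mean of 2 libraries. Groups run from resistant, parental and shp150_AP1 to vector_NT. In the zinc finger and protocadherin windows resistant and shp150_AP1 points lie below those of their controls, and in the chromosome 3 stretch (60 to 75 Mb) all lie just under 1.

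Single regions were then tested with edgeR's quasi-likelihood model on the ChIP counts with the input counts as offset. Each library was centred on the median of all constant regions, so a call says that a region moved relative to the typical constant region. A region with a Benjamini-Hochberg adjusted p under 0.05 over all 16933 regions tested was called. Of 9910 large constant regions tested, 362 (3.65%) were called higher in resistant than parental cells and 180 (1.82%) lower. Over all constant regions 2.2% were called higher and 1.41% lower. With the authors' depth factor in place of the centring, the median region lay at -0.29, and 59 members were called higher and 2092 lower, against 0.378% higher and 17.6% lower over all. ChIP reads per covered base, with no input, gave 99 higher and 14 lower. The direction of the bulk of the calls thus depended on the scaling. Without any 1 of the resistant or parental libraries the centred fit called 182 to 263 higher and 83 to 99 lower.

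Regions called higher and lower differed in kind. Measured in vector_NT cells, which took no part in this comparison, the median fold was 1.63 in the 362 regions called higher, 3.19 in the 180 called lower and 2.10 in all tested. Of the regions called lower, 14 lay in the chromosome 19 zinc finger windows, and 1 region there was called higher, out of 110 tested. The median member there changed by -0.13 on the centred and -0.43 on the authors' scale, against 0.041 and -0.26 over all members. In the chromosome 3 stretch 12 of 13 regions were called higher on the centred scale (median 0.31), while on the authors' scale their median change was 0.0035. Resistant cells had a median input density of 0.849 times that of parental cells in the regions called higher, 1.12 times in those called lower and 0.991 times in all tested. The median length was 55.7 kb in the regions called higher, 26.1 kb in those called lower and 17.6 kb in all tested. The parts of input and of length in these calls were not tested.

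The largest changes by size were in regions that islands covered only in part. The region with the largest rise in resistant cells, at chromosome 10, 132117801 to 132128599, had folds of 3.10 and 8.16 in resistant, against 2.24 and 2.17 in parental cells. Islands covered 33.3% and 18.5% of it in resistant and 18.5% and 31.5% in parental libraries. Its log2 fold change was 1.55 (SE 0.352, edgeR adjusted p = 0.0128), and the second resistant value rests on 89 ChIP and 16 input reads. The other 4 of the highest rose by 1.07 to 1.39, at chromosome 8, 115134201 and 109803401, chromosome 5, 160181401, and chromosome 4, 98610401. The largest fall was at chromosome 2, 184641601 to 184660799, with folds of 1.55 and 2.03 in resistant, against 4.78 and 6.0 in parental cells. Its log2 fold change was -1.28 (SE 0.255, edgeR adjusted p = 0.00402), with 20.8% to 41.7% covered in these libraries. The other 4 of the lowest fell by 1.04 to 1.27, at chromosome 7, 85311401 and 154484601, chromosome 5, 135671401, and chromosome 2, 5805601.

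Calls also stood in regions covered well. Of the 2087 regions with 50% or more covered in each library, 148 (7.09%) were called higher and 106 (5.08%) lower in resistant cells. Over all large constant regions tested these shares were 3.65% and 1.82%, and over all constant regions 2.2% and 1.41%. A rule chosen after these values were seen names the leading ones within this subset. The leading rise was on chromosome 22, at 49075601, and is described with the difference test below. The next rise was at chromosome 8, 1266201 to 1298199, where the fold was 2.19 and 2.35 in resistant, against 1.57 and 1.54 in parental cells (log2 fold change 0.85, SE 0.0884, edgeR adjusted p = 2.12e-06). Its relative input density was 1.07 and 1.10 in resistant, against 1.45 and 1.47 in parental cells. On the authors' scale it was higher by 0.55. The leading fall in this subset was a 14 kb region at chromosome 17, 77932601 to 77946599. Its fold was 1.57 and 1.67 in resistant, against 3.85 and 4.19 in parental cells, with a log2 fold change of -1.01 (SE 0.112, edgeR adjusted p = 4.04e-06). Its relative input density was 1.45 and 1.58 in resistant and 1.51 and 1.40 in parental libraries, which overlapped. At chromosome 22, 46921601 to 46934599, the fold was 1.42 and 1.91 in resistant, against 3.89 and 3.15 in parental cells (log2 fold change -0.79, SE 0.14, edgeR adjusted p = 0.00139). The long protocadherin region, at chromosome 5, 140452601 to 140874799, had folds of 2.34 and 2.45 in resistant, against 3.28 and 3.37 in parental cells. Its centred log2 fold change was -0.17 (SE 0.0391, edgeR adjusted p = 0.0134). The 517 kb region at chromosome 19, 37191401 to 37708599, had 2.96 and 3.15 in resistant, against 4.14 and 4.36 in parental cells (centred log2 fold change -0.17, SE 0.0396, edgeR adjusted p = 0.0132). These 4 regions, from chromosomes 17, 22, 5 and 19, were lower on both scales. The longest chromosome 19 region named above was not called (centred log2 fold change 0.13, authors' scale -0.17, edgeR adjusted p = 0.0651).

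The second comparison asked the same of cells given c-JUN, c-FOS and the hairpin against p150. The pooled fold over all large constant regions was 1.68 and 1.61 in shp150_AP1, against 1.78 and 1.84 in vector_NT cells. The means were 1.65 ± 0.044 and 1.81 ± 0.044 (SD, n = 2 each), a log2 difference of -0.14 with no overlap and an exact two-sided permutation p of 0.33, the smallest possible. The difference was -0.20 in the shorter constant regions and -0.099 in the merged regions not called in all 8 libraries. A lower ChIP enrichment of whole libraries cannot be told apart here either. In the chromosome 19 zinc finger windows the pooled fold was 3.22 and 3.20 in shp150_AP1, against 3.77 and 3.93 in vector_NT cells (log2 difference -0.26). In the protocadherin window it was 2.78 and 2.68 in shp150_AP1, against 3.26 and 3.41 in vector_NT cells (-0.29), and in the 7q11.21 window 3.19 and 3.07 in shp150_AP1, against 3.53 and 3.72 in vector_NT cells (-0.21). The relative input density was 0.697 and 0.708 in shp150_AP1, against 0.654 and 0.653 in vector_NT cells, in the 7q11.21 window, and 1.01 and 1.03 in shp150_AP1, against 0.973 and 0.967 in vector_NT cells, in the protocadherin window. The groups overlapped in the chromosome 19 windows.

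Fewer regions passed the test here. Of 9910 tested, 87 (0.878%) were called higher in shp150_AP1 than vector_NT cells and 126 (1.27%) lower, against 0.52% and 0.909% of all constant regions. With the authors' depth factor the median region lay at -0.11, and 25 members were called higher and 375 lower, against 0.154% and 2.76% of all. ChIP reads per covered base, with no input, gave 834 higher and 5 lower, so here too the balance of the calls depended on the scaling. Without any 1 of the shp150_AP1 or vector_NT libraries the centred fit called 17 to 54 higher and 33 to 98 lower. Without shp150_AP1 replicate 1 the higher calls (54) outnumbered the lower ones (37). The regions called lower had a median fold of 3.36 in parental cells, which took no part in this comparison, those called higher 1.44, and all tested 2.13. In the chromosome 19 zinc finger windows 24 of 110 regions were called lower and 0 higher. Islands covered 50% or more in each library in 112 of the 126 regions called lower (88.9%) and in 42 of the 87 called higher (48.3%). Of all 9910 tested, 21.1% were so covered. The median length was 107 kb in the regions called higher, 45.7 kb in those called lower and 17.6 kb in all tested.

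The chromosome 17 region that led the falls among well covered regions in resistant cells had the largest fall of the regions called here. Its fold was 2.0 and 2.04 in shp150_AP1, against 3.79 and 4.59 in vector_NT cells, with a log2 fold change of -0.93 (SE 0.112, edgeR adjusted p = 7.77e-05). The same chromosome 22 region, at 46921601, had 1.76 and 1.73 in shp150_AP1, against 3.36 and 3.36 in vector_NT cells (-0.82, SE 0.14, edgeR adjusted p = 0.00231). The long protocadherin region had 2.87 and 2.81 in shp150_AP1, against 3.55 and 3.68 in vector_NT cells (centred log2 fold change -0.23, SE 0.0391, edgeR adjusted p = 0.00236). Next to the interferon window, the region at chromosome 9, 22220001 to 22235999, had 1.80 and 2.43 in shp150_AP1, against 4.49 and 4.49 in vector_NT cells (-0.92, SE 0.178, edgeR adjusted p = 0.00705). Islands covered 25% and 68.7% of it in shp150_AP1 and 92.5% in both vector_NT libraries. The other 2 of the lowest fell by 0.84 at chromosome 4, 181251401, and by 0.78 at chromosome 1, 33871001. The 5 largest rises ranged from 0.79 to 1.17, at chromosome 7, 31879001, 19181201 and 144739001, chromosome 20, 37686001, and chromosome 11, 134741801. Islands covered 9.997% to 36.9% of them in the shp150_AP1 libraries. In the region at chromosome 7, 19181201 to 19201999, the fold was 3.18 and 3.80 in shp150_AP1, against 1.64 and 1.78 in vector_NT cells (log2 fold change 1.16, SE 0.203, edgeR adjusted p = 0.00292), with 16.3% and 14.4% covered in shp150_AP1 libraries.

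The 2 comparisons share no library, so their calls could be set side by side. They came from the same fit with a shared estimate of the spread, so the calls are not independent. Of the 9910 regions tested, 1.82% were called lower in resistant and 1.27% in shp150_AP1 cells. Called higher were 3.65% in resistant and 0.878% in shp150_AP1 cells. Of the regions called lower, 66 were shared, which is 36.7% of those lower in resistant and 52.4% of those lower in shp150_AP1 cells. Of the regions called higher, 63 were shared, 17.4% of the resistant and 72.4% of the shp150_AP1 list. No region was called in opposite directions, though at these shares few such regions would be met in any case. The overlap was not tested.

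In both comparisons the change of a region went with the fold it had in control libraries of the other comparison. For resistant against parental cells, with the fold taken in vector_NT cells, the median centred log2 change was 0.24 in regions under 1.2, 0.15 from 1.2 to 1.5, 0.092 from 1.5 to 2, 0.0048 from 2 to 3 and -0.10 at 3 or more. On the authors' scale these medians were -0.060, -0.16, -0.21, -0.30 and -0.40. For shp150_AP1 against vector_NT cells, with the fold taken in parental cells, the centred medians were 0.18, 0.12, 0.083, 0.0012 and -0.10 in the same order, and on the authors' scale 0.062, 0.0037, -0.036, -0.12 and -0.22. On either scale, the regions with the most H3K9me3 had the lowest medians. No test was made of this order, since regions are not replicates.

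**Figure D4:**
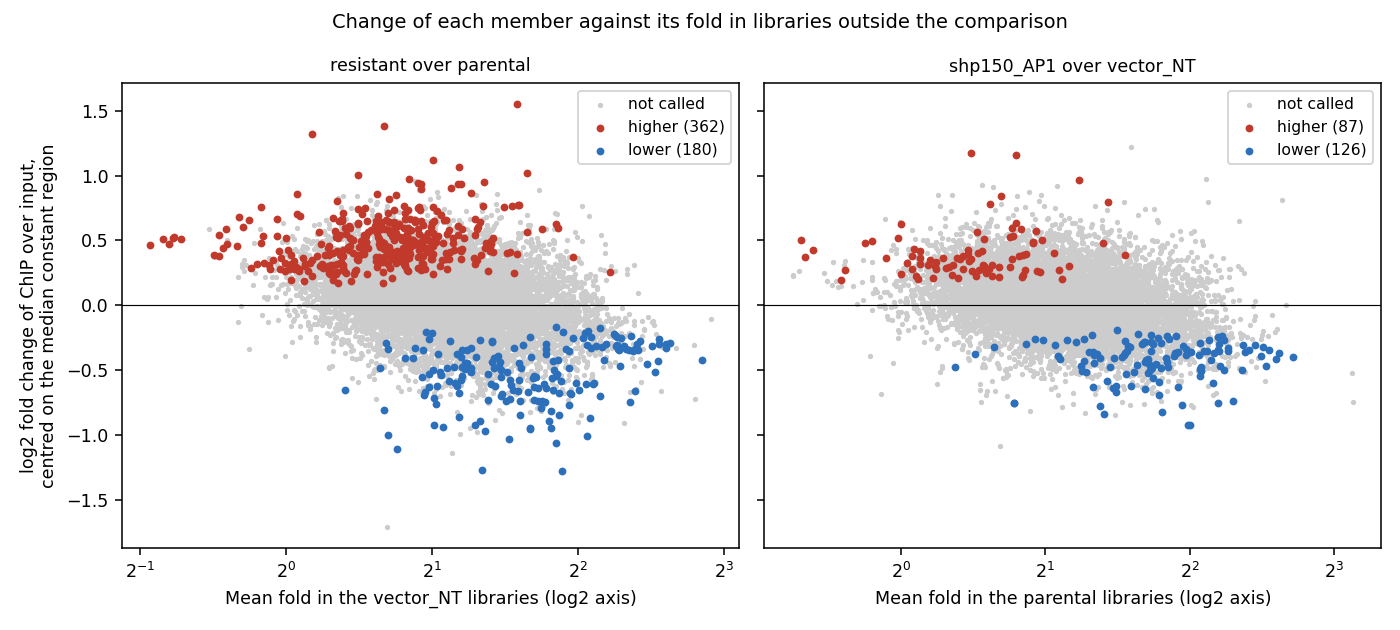
Centred log2 fold change of each large constant region (vertical axis) against its mean fold in control libraries outside the comparison (horizontal log2 axis), for resistant over parental cells (left) and shp150_AP1 over vector_NT cells (right). Red points are regions called higher (362 and 87) and blue points regions called lower (180 and 126) at an edgeR adjusted p under 0.05, and they lie mostly at low and at high fold.

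The difference between the 2 comparisons was tested in the same fit. Of 9910 regions, 0 were called with a higher and 3 with a lower log2 change in shp150_AP1 over vector_NT than in resistant over parental cells, against 0% and 0.0177% of all constant regions. At an unadjusted p under 0.05 there were 284 and 490, together 7.81% of the regions tested, near the 6.59% of all constant regions. DESeq2 called 6 (0.4%) and 64 (4.27%), of the smaller number of regions to which it gave an adjusted p. With the authors' depth factor, 0 were called in either direction. The 3 regions lay next to each other on chromosome 22, between 48978601 and 49661399. In the middle one, at 49075601 to 49257999, the fold was 2.78 and 2.65 in resistant, against 1.78 and 1.82 in parental cells (log2 fold change 0.90, SE 0.054, edgeR adjusted p = 6.92e-10). In shp150_AP1 cells it was 2.32 and 2.25, against 1.90 and 1.90 in vector_NT cells (0.39, SE 0.0536, edgeR adjusted p = 0.000303). It was higher in resistant and in shp150_AP1 cells on the authors' scale too, by 0.59 and 0.27. Islands covered 99.5% and 98.9% of it in resistant and 68.6% and 68.5% in parental libraries. The relative input density was 1.15 and 1.23 in resistant and 1.56 and 1.54 in parental cells, so input moved the opposite way, and its part was not tested. Leaving out parental replicate 1 or 2, resistant replicate 1, shp150_AP1 replicate 1, or vector_NT replicate 1 or 2 left 0 regions in this direction, while without shp150_AP1 replicate 2 there were 28 and without resistant replicate 2 there were 2.

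Open chromatin inside the large constant regions was taken from the ATAC-seq peak lists, which took no part in choosing them. A peak counted as inside when its midpoint was. The share of a library's peaks inside was 7.60% and 7.69% in resistant, against 6.94% and 6.90% in parental cells, and 7.60% and 7.60% in shp150_AP1, against 7.0% and 6.89% in vector_NT cells. Neither pair of groups overlapped (exact permutation p = 0.33 each, the smallest possible), with differences of 0.728 and 0.653 percentage points. Without regions of relative input density of 1.5 or more, a setting chosen after the data were seen, the differences were 0.444 and 0.401 points. In AP1 cells the share was 6.44% and 6.51%, against 6.50% and 6.49% in vector cells. In shp150 cells it was 7.18% and 7.20%, against 6.99% and 7.06% in NT cells, and in WM983B 6.78% and 7.08% in resistant, against 6.82% and 7.22% in parental cells. Peak lists carry no depth, so the depth behind these shares is unknown.

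Inside the large constant regions, gained ATAC-seq regions outnumbered lost ones in resistant and in shp150_AP1 cells. Of 8722 merged ATAC-seq regions inside, 1263 (14.5%) were called in both resistant and neither parental library, against 9.85% over the whole set, and 350 (4.01%) the reverse, against 3.95%. In shp150_AP1 cells 718 of 8290 (8.66%) were gained, against 5.21% over all, and 245 (2.96%) lost, against 3.24%. AP1 cells gained 73 of 4506 (1.62%, against 1.6% over all) and lost 136 (3.02%, against 2.84%). The shp150 cells gained 40 of 4843 (0.826%, against 0.741%) and lost 353 (7.29%, against 7.54%). These counts have no test. With lists of equal length, resistant cells gained 976 regions inside (12.2%, against 7.62% over all) and lost 488 (6.08%, against 6.10%). Peak density was also higher outside these regions. Inside, resistant cells had 23.62 and 25.13 peaks per Mb, against 19.80 and 19.80 in parental cells. Shorter constant regions had 17.21 and 18.21, against 14.26 and 14.36, and other islands 15.65 and 16.58, against 12.93 and 13.04. The shp150_AP1 libraries lay above the vector_NT ones in each of these sets. Whether the rise was larger inside was not tested.

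Density of open chromatin was lower where the fold of H3K9me3 was higher. From the lowest to the highest class of fold, resistant cells had 51.0, 32.2, 24, 16.4 and 9.04 peaks per Mb of region (means of 2 libraries), and parental cells 43.2, 24.6, 19.6, 13.15 and 8.32. In the lowest class shp150_AP1 cells had 48.6 and vector_NT cells 43.6 peaks per Mb. In the highest class the libraries overlapped, with 8.71 and 9.25 in shp150_AP1, against 8.83 and 7.75 in vector_NT cells. WM983B cells, in which H3K9me3 was not measured here, showed the same order, with 54.6 in resistant and 54.9 in parental cells in the lowest class, and 19.2 in resistant and 19.7 in parental cells in the highest. Relative input density had the same order, and its part was not tested. By count alone, the region with the most merged ATAC-seq regions over the 16 libraries of 451Lu was the longest one, on chromosome 3, with 332, or 99.2 per Mb. It held 230 and 234 peaks in resistant, against 208 and 193 in parental cells. At the other end, 5352 large constant regions (54%), 100.2 Mb in all, held none of the 127011 merged regions.

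**Figure D5:**
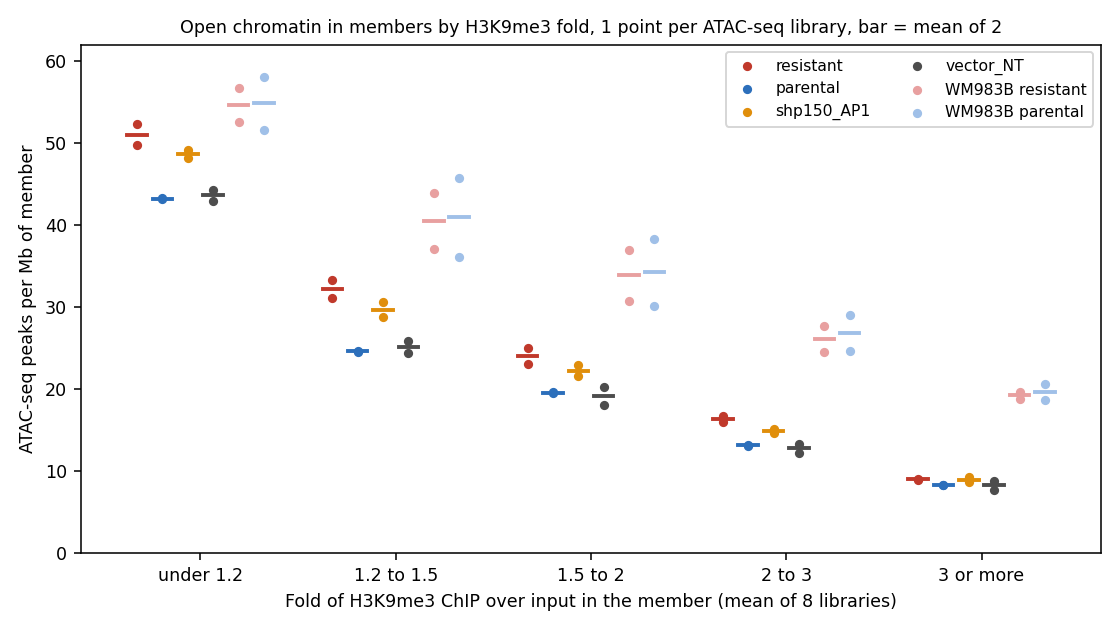
ATAC-seq peaks per Mb of large constant region (vertical axis) by class of mean H3K9me3 fold (horizontal axis), 1 point per ATAC-seq library, with a bar at the mean of 2. In every group shown the density is highest under a fold of 1.2 and lowest at 3 or more. Resistant and shp150_AP1 points lie above their 451Lu controls in the lowest class. At 3 or more the shp150_AP1 and vector_NT points overlap.

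Gained ATAC-seq regions were also counted inside the regions called for H3K9me3, without a test. Of ATAC-seq regions inside those called lower for H3K9me3 in resistant cells, 11.3% (36 of 319) were gained, and inside those called higher 10.95% (228 of 2082), against 14.5% over all large constant regions. In shp150_AP1 cells these shares, 7.54% (19 of 252) and 8.52% (38 of 446), were near the 8.66% over all. The chromosome 17 region described above held 2 and 3 peaks in resistant, against 2 and 2 in parental cells, and 1 and 2 in shp150_AP1, against 2 and 2 in vector_NT cells. For H3K27ac, a mark of active promoters and enhancers, the labels list 2 libraries per group. Peaks of 1 library per group were used here, with no replicate check. They numbered 22.9 per Mb of large constant region in resistant and 15.9 in parental cells, on lists of 50948 and 31807 peaks. As a share of each list, the order was the opposite, with 12.7% in resistant and 14.1% in parental cells. In WM983B, resistant cells had the lower value on both measures. The density was 9.13 per Mb in resistant and 14.97 in parental cells, and the share 7.24% and 8.48%. These values were not tested.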

How the data were processed

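H3K9me3 was measured by ChIP-seq in 8 libraries of 451Lu and open chromatin by ATAC-seq in 20 libraries of 451Lu and WM983B. Tools listed in the submitters' processing notes were SICER, MACS2, Bowtie2, Picard, deepTools and STAR 2.5.3, with the build hg19. Which tool made which file, and how replicates, duplicates and Tn5 offsets were treated, are points not given in the sources used here. Per library, the deposited H3K9me3 files list islands with a count each of ChIP and of input reads, the fold (a ratio) and a false discovery rate (a p-value adjusted by the authors). The deposited fold equalled ChIP over input times 1 factor per library, within a relative deviation of 4.95e-12. The deposited ATAC-seq and H3K27ac peaks carry a score from the authors' peak caller, used only for lists of equal length.

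Islands were merged as the opening of the results states, and counts were summed per region. Regions called in all 8 libraries with at least 10 input reads in each were fitted with edgeR 4.0.16 (glmQLFit and glmQLFTest) in R 4.3.3. The 4 groups shared 1 estimate of the spread, and the offset was log input plus 1 constant per library that equalised the median ratio. DESeq2 1.42.0, limma 3.58.1 and the other settings of the closing section were alternatives. On simulated counts of resistant against parental cells over 16933 regions, 14% of changes of 0.5 and 64% of changes of 1 on the log2 scale were recovered, with 5 false calls. A change under the size of these often goes uncalled. Depth inside islands was 11.5 to 30.9 M ChIP reads per library. Reads carry no molecular identifiers, so the precision from counts covers counting error only.

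Named regions were the 10 longest, the 5 with the largest significant change in each direction per comparison, the 5 with the most ATAC-seq regions, and those next to the length limit. The longest in 2 kinds of gene window, the well covered leading changes and the 3 regions of the difference test were added after values were seen. The members, windows and lists were chosen with earlier results of these data known. Whether replicate numbers pair the samples is not stated in the labels, and no pairing was used in the main fit. After centring, deviations of libraries with the same number from their group means had correlations of -0.0092 to 0.0063. Centring takes out any shift of a whole library, so these values cannot decide on a pairing of that kind. Gene families and lineage markers by symbol were not counted, since no hg19 annotation was used. The deposited table of genomic intervals was not used here. Coordinates are of hg19, counted from 1.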

Additional observations from a re-analysis of the deposited data

Results flagged for a closer look

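At 3 neighbouring regions the change differed between the 2 comparisons by the test of the difference itself. The log2 change in shp150_AP1 over vector_NT cells minus that in resistant over parental cells was -0.82 (SE 0.144, edgeR adjusted p = 0.0491) at chromosome 22, 48978601 to 49002999. It was -0.51 (SE 0.0758, edgeR adjusted p = 0.0118) at chromosome 22, 49075601 to 49257999, and -0.44 (SE 0.0683, edgeR adjusted p = 0.0118) at chromosome 22, 49386201 to 49661399. In the first, the fold was 2.73 and 3.23 in resistant, against 1.79 and 2.04 in parental cells, and 2.26 and 2.31 in shp150_AP1, against 2.32 and 2.27 in vector_NT cells. In the last it was 2.31 and 2.27 in resistant, against 1.78 and 1.80 in parental cells, and 1.98 and 1.96 in shp150_AP1, against 1.80 and 1.90 in vector_NT cells. Resistant libraries were higher than parental ones in 2 of 2 cases in each region. Islands covered at least 99.2% of the first in resistant and 46.7% and 39.3% in parental libraries. With the authors' depth factor none of the 3 was called.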

How the results depend on the processing

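The pooled folds and the shares of ATAC-seq peaks kept their direction in every setting tried, among them without each library in turn. Every pooled fold used the authors' depth factor, and no other scaling was tried for it. The median log2 change of single members did change sign with the scaling. On the authors' scale it was -0.26 (resistant over parental) and -0.089 (shp150_AP1 over vector_NT), and on the centred scale 0.041 and 0.031. The centred scale is relative to the typical constant region, so it cannot show a shift of all regions. For the pooled fold itself, no scaling other than the authors' was tested. Without 1 library, log2 differences of the pooled fold ran from -0.28 to -0.22 (resistant over parental) and from -0.17 to -0.11 (shp150_AP1 over vector_NT). Differences in share ran from 0.682 to 0.775 and from 0.598 to 0.709 points. The counts of called regions, and which direction held more of them, depended on the settings, and the cause was not tested. The order below is resistant over parental higher and lower, then shp150_AP1 over vector_NT higher and lower. The authors' depth factor gave 0.595%, 21.1%, 0.252% and 3.78% of members called. ChIP reads per covered base without input gave 0.999%, 0.141%, 8.42% and 0.0505%. A minimum of 20 kb gave 7.89%, 2.90%, 2.07% and 2.47%. Members covered by 50% or more in each library, chosen after seeing the data, gave 7.09%, 5.08%, 2.01% and 5.37%. DESeq2 gave 2.73% lower for the first comparison and 3.13% higher and 4.16% lower for the second, of regions with an adjusted p. For shp150_AP1 over vector_NT, higher calls were 0.321% with islands of a false discovery rate of 0.01 or less and 0.585% without members of high input (chosen after seeing the data). Without 1 library, the 4 shares were 1.84 to 2.65%, 0.838 to 0.999%, 0.172 to 0.545% and 0.33 to 0.989%.

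For the difference between comparisons, lower calls were 0% with the authors' depth factor and with no input, 4.27% with DESeq2 (0.4% higher), 0.0202% with limma or an input minimum of 1 read, 0.0749% from 20 kb and 0.0958% in members covered by 50%. They were 0 to 0.283% without 1 library (higher 0 to 0.0605%). Here the 8 libraries were left out in turn, and a lone library was assumed to vary like the others.

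With lists of equal length, 6.08% of ATAC-seq regions inside members were lost in resistant cells, and shp150 over NT gave 2.31% gained and 3.28% lost. Leaving out a library eases the definition of gained and lost, and the shares ran as follows. Gained was 17.97 to 24.4% (resistant), 11.3 to 18.7% (shp150_AP1), 3.73 to 8.45% (AP1) and 1.81 to 6.56% (shp150). Lost was 5.88 to 8.48%, 4.92 to 8.69%, 5.23 to 11.4% and 13.33 to 18.2%. Without AP1 replicate 1, AP1 cells gained more (8.45%) than they lost (5.23%), the reverse of the value with both libraries.

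The number of members was 15970 from 5 kb, 4004 from 20 kb, 2087 where 50% was covered, and 9643 to 10311 without 1 library. With the replicate block, a pairing that the labels do not state, 342 and 173 members were called in resistant and 77 and 116 in shp150_AP1 cells, and 3 for the difference. Presence in all 8 libraries limits how far a member can fall in any of them. With 2 libraries per group an exact test cannot pass 0.05, and peak lists carry no depth.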
